A study of Mus musculus with 32 samples.

Results

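Potassium channel genes are those whose symbol begins with Kcn, followed by letters and a closing number, and that reached an FPKM (a fragment count scaled by transcript length and by the mapped fragments of the library) of at least 1 in 3 or more of the 32 samples. The pattern held 92 of the 22337 genes in the tables, and 78 of the 92 met the FPKM minimum. Over all genes, 15277 of the 22337 met it. The 78 members fell into 8 families by symbol: 15 pore subunits of the Kv1 to Kv4 type (Kcna, Kcnb, Kcnc and Kcnd), 8 silent Kv subunits (Kcnf, Kcng, Kcns and Kcnv), 5 Kv7 subunits (Kcnq), 6 of the EAG, ERG and ELK type (Kcnh), 8 grouped as calcium- or sodium-activated (Kcnma, Kcnn and Kcnt, with Kcnu1, their relative gated by pH), 13 inward rectifiers (Kcnj), 10 two-pore-domain channels (Kcnk) and 13 auxiliary subunits (Kcnab, Kcnip, Kcne and Kcnmb). Of the 14 genes outside the minimum, Kcnh4, Kcnk15, Kcnk7 and Kcnmb1 came nearest, each with 1 library at an FPKM of at least 1, and their highest values were 1.52, 1.58, 1.23 and 7.95. Just inside it, Kcnmb3 reached the minimum in 5 libraries with a highest FPKM of 3.57, and Kcna3, Kcnj12 and Kcnk9 reached it in 6 libraries each.

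Potassium channels let potassium ions flow down their gradient and so set the resting potential, end each action potential and shape how often a neuron fires. Kv pore subunits assemble as tetramers, silent subunits join them without forming channels of their own, and auxiliary subunits change where the pores go and how fast they inactivate. Inward rectifiers and two-pore-domain channels carry current at rest in neurons, glia, endothelium and choroid plexus epithelium, and in the hippocampus dendritic A-type and calcium-gated channels limit the excitability of pyramidal cells.

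The samples came from 6-month-old male mice on the C57BL/6J background, and each library was prepared from a single mouse with the Smart-seq2 protocol. The WT mice were non-carrier littermates. The 5xFAD mice carried transgenes with familial Alzheimer's disease mutations, human APP among them, driven by the neuronal Thy1 promoter, and part of them received near-infrared light through the shaved scalp under anesthesia for 10 min, 3 times a week, over 4 weeks, while untreated mice were anesthetized and shaved in the same way and kept under room light. The tissues were hippocampus (HPC, 4 WT, 4 untreated 5xFAD and 4 light-treated 5xFAD libraries), meninges (4, 3 and 3) and meningeal lymphatic endothelial cells (mLECs; 4, 3 and 3), sorted as living cells without CD45 and with CD31 and PDPN. Values are given below in replicate order, which is 1, 2 and 4 for both 5xFAD groups in the meninges and for untreated 5xFAD mLECs, and 1, 2 and 3 for light-treated mLECs.

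Total counts per library ran from 13952825 to 23856476 in HPC, from 6601143 to 14708202 in the meninges and from 14231415 to 24207326 in mLECs. Between 62 and 70 members reached an FPKM of 1 in an HPC library, between 33 and 62 in a meningeal library and between 1 and 7 in an mLEC library. Replicates differed by more than counting error. For pairs of libraries of the same group, the chi-square per degree of freedom over all genes with at least 10 counts was 10.9 to 15.7 in WT HPC, 39.0 to 100.5 in untreated 5xFAD HPC and 9.25 to 29.5 in light-treated HPC. It was 26.1 to 79.3 across the meningeal groups and 391 to 1858 across the mLEC groups. The coefficient of variation of a member within its group had a median of 13.8% in WT HPC, 29.4% in untreated 5xFAD HPC and 19.7% in light-treated HPC, over the 63, 68 and 65 members with a mean FPKM of at least 1. In the meninges these medians were 42.3%, 32% and 42.7%. Differences between mice and between library preparations cannot be told apart in these values. The exons of 28 members overlapped exons of another gene, and the library protocol kept no strand. In 5 of the 28 the other gene was also in the tables, namely Kcnh3 with Mcrs1, Kcnh7 with Gca, Kcnip4 with 5730480H06Rik, Kcnj13 with Gigyf2 and Kcnk4 with Catsperz.

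Several libraries stood apart or did not match their label. Of 7 markers of lymphatic endothelium, 4 were at 0 in WT mLEC replicates 2 and 4, Lyve1 and Pdpn among them. Pdpn, whose protein was used in the sort, was also at 0 in untreated 5xFAD replicates 2 and 4 and at 0.04 in light-treated replicate 3. The summed FPKM of the 7 markers was 6736, 38, 4353 and 55.7 in WT mLECs, 1156, 1684 and 4489.7 in untreated 5xFAD and 9718, 3079 and 8755 in the light-treated group, with Ccl21a the most abundant in the 8 high libraries and Flt4 in the 2 low ones. The 4 markers of endothelium in general summed to 509 and 536 in those 2 libraries and to 416 to 700 in the other 8. In HPC, untreated 5xFAD replicate 3 was the highest of the 12 libraries for 21 of the 68 members tested, against 18.5% of all genes, and the lowest for 12, against 23.1%. Its FPKM was for example 9.17 for Kcnt1, 16 for Kcnh3 and 10.8 for Kcnh7, each above the other 11 libraries. Untreated 5xFAD replicate 1 was the lowest for 18 of the 68, against 13.4% of all genes. RNA of choroid plexus epithelium was also uneven in HPC. Its 7 markers, with Ttr the most abundant, summed to 112, 2796, 409 and 36.3 in WT, 3190.0, 2918, 693 and 205 in untreated 5xFAD and 131, 116, 63.1 and 244 in the light-treated group, so WT replicate 2 and untreated replicates 1 and 2 held the most, and 1 marker was at 0 in WT replicate 4.

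In WT HPC the members summed to a mean FPKM of 973 ± 50.0 (SD, n = 4), and 63 of the 78 had a mean of at least 1. The auxiliary subunits held 467 of the 973, mostly through Kcnab2, a cytoplasmic subunit of Kv1 channels, at a mean of 267 ± 10.3. Next came Kcnk1, a two-pore-domain channel, at 62.5 ± 5.07, Kcnab1, another Kv1 partner, at 50.9 ± 2.86, Kcnip3, a calcium-binding partner of Kv4, at 45.2 ± 5.57, and Kcna1, an axonal Kv1 pore, at 43.4 ± 4.82 (SD, n = 4 each). Kcnk1 and Kcnab1 lay apart by more than the sum of their SDs, whereas neighbours from Kcnab1 to Kcna1 did not. Within the families the most abundant in WT HPC were Kcnv1 of the silent subunits, Kcnh3 of the EAG, ERG and ELK type, Kcnn2 of the calcium- or sodium-activated group and Kcnj3 of the inward rectifiers. Among the 63 members with a mean of at least 1, the least variable across the 4 WT mice was Kcna2, with a coefficient of variation of 2.06%. The most variable of the 63 was Kcne2, with 154%.

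In WT meninges the sum was 508 ± 55.4 (SD, n = 4), and 55 members had a mean of at least 1. Here the order was led by Kcnj13, an inward rectifier of choroid plexus epithelium, at 168 ± 56.8, followed by Kcne2, an accessory subunit of the same epithelium, at 46.7 ± 15.1, Kcnk1 at 39.9 ± 7.36, Kcne4, another accessory subunit, at 31.1 ± 11.4, and Kcnj14, an inward rectifier, at 25.1 ± 10.8 (SD, n = 4 each). From Kcne2 to Kcnj14, neighbours in this order differed by less than the sum of their SDs. The 7 choroid plexus markers summed to 15739.8, 41871, 38791 and 39001 in the WT meninges, 33547, 30381 and 26081 in untreated 5xFAD and 32202, 28895 and 49276 in the light-treated group, with Ttr the most abundant and none at 0, so RNA of these markers was present in every meningeal library. Its part in the levels of Kcnj13 and Kcne2 was not tested. Among the 55 members with a mean of at least 1, Kcnj8, the pore of a vascular ATP-sensitive channel, varied least across the 4 WT meninges. Its coefficient of variation was 6.85%, and Kcnab3 varied most of the 55, with 132%.

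The meninges and the HPC of WT mice were compared to describe where each member was expressed. The genes tested, with edgeR, reached an FPKM of 1 in 3 or more of the 8 libraries, and a gene could pass this filter through 1 tissue alone. Of the 73 members tested, 64 differed at an adjusted p below 0.05, against 71.1% of the 14144 genes tested. In the meninges 15 were higher, against 37.8% of genes, and 49 were lower, against 33.2%. Leaving out 1 library at a time gave 61 to 65. The median log2 ratio of meninges over HPC was -1.83 over the 73 members and 0.07 over all genes tested, and it was -1.98 over 71 members with Kcnj15 and Kcnmb3 left out, whose counts in the WT HPC libraries were 0, 1, 0 and 0 and 2, 0, 2 and 1. No fold is given for these last 2, whose FPKM in WT meninges reached 4.34 and 3.57. By family, 0 of 13 Kv1 to Kv4 pores were called higher and 9 lower, 0 of 8 silent subunits higher and 7 lower, 1 of 4 Kv7 subunits higher and 3 lower, and 4 of 13 auxiliary subunits higher and 9 lower. Among 12 inward rectifiers 5 were higher and 7 lower, and among 9 two-pore-domain channels 2 were higher and 6 lower. Of 8 in the calcium- or sodium-activated group 1 was higher and 5 lower, and of 6 of the EAG, ERG and ELK type 2 were higher and 3 lower.

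The two-pore-domain channel Kcnk5 (TASK-2, ENSMUSG00000023243, chr14:20140057-20181809 on GRCm38) had FPKMs of 0.38, 0.16, 0.14 and 0.14 in WT HPC and 24.5, 11.2, 15.4 and 30.1 in WT meninges. The 4 meningeal values were all above the 4 HPC values, and the log2 ratio was 6.53 (SE 0.45, adjusted p = 6.95e-07, edgeR). Kcne4 followed at a log2 ratio of 5.72, and then Kcnn4, a calcium-gated channel of blood cells and endothelium, at 5.05, Kcnh6 at 4.89, Kcne2 at 4.30, Kcnj13 at 3.94, Kcnj14 at 3.83 and Kcnq1 at 3.81. Kcnq1 is the pore that pairs with Kcne subunits in epithelia. Some of these ratios depended on WT HPC replicate 2, the choroid-rich WT library. Without it the log2 ratio was 6.40 for Kcne2 and 5.97 for Kcnj13. For Kcnn4, whose counts in the other 3 WT HPC libraries were 3, 0 and 2, no fold without it is given. In the other direction the log2 ratio was -5.60 for the silent subunit Kcnv1, -5.08 for the silent subunit Kcns2, -4.59 for Kcng1, -4.48 for Kcnab2, -4.40 for Kcnj9, -4.36 for Kcnq3, -4.33 for Kcnip4, -4.21 for Kcnq5 and -4.19 for Kcnj3. Kcnj3 and Kcnj9 belong to the channels opened by G proteins, and without WT meninges replicate 1 their log2 ratios were -5.26 and -5.15. Each of these genes had an adjusted p below 0.05 in every alternative run, and its 4 libraries of the higher tissue lay above the 4 of the other.

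**Figure D1:**
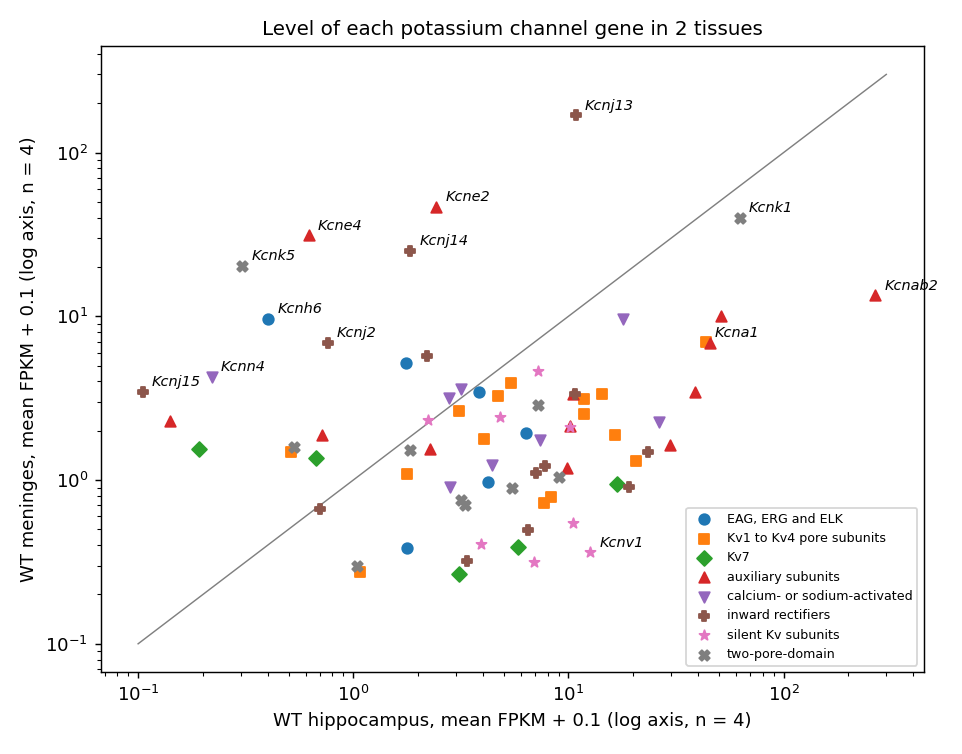
Mean FPKM plus 0.1 of each of the 78 members in WT HPC (x axis) and WT meninges (y axis), both axes logarithmic, 4 libraries each, coloured by family. Kcnab2 lies farthest right at a mean FPKM of 267 in HPC, and Kcnj13 is the highest in the meninges at 168.

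In HPC, untreated 5xFAD was compared with WT to describe how the transgenic mice differed without treatment, and light-treated with untreated 5xFAD to describe how treated mice differed from untreated ones. Both comparisons used the same 4 untreated 5xFAD libraries, so they are not independent of each other. Of 78 members 68 passed the filter (an FPKM of 1 or more in any 3 of the 12 libraries). For 5xFAD against WT, 4 of the 68 were called by edgeR at an adjusted p below 0.05, against 8.54% of the 12981 genes tested. Higher in 5xFAD were 2, against 6.48% of genes, and lower were 2, against 2.06%. At an unadjusted p below 0.05 there were 15, against 24.0%, of which 3 were higher, against 13.7%, and 12 lower, against 10.2%. The 4 values of each group did not overlap for 2 members higher in 5xFAD, against 8.75% of genes, and for 7 lower, against 5.79%. DESeq2 called 10 members, against 13.3% of genes: the 4 called by edgeR and Kcna1, Kcnab1, Kcnab2, Kcnc2, Kcng2 and Kcnip2. The median log2 fold change was 0.00 over the 68 members and 0.01 over all genes tested, and the members' median was -0.15 without untreated 5xFAD replicate 3 and 0.14 with the 3 choroid-rich libraries left out. The share of members above 0 was 50%, against 52.1% of genes. The count called was 2 without WT replicate 1 (with 732 of all 12981 genes called) or 4 (636), and 3 without WT replicate 2 (813) or 3 (726) or 5xFAD replicate 1 (810). It was 6, with 2 higher and 4 lower, without 5xFAD replicate 2 (1167), 3 (1141) or 4 (1713), beside 1108 genes with all libraries in. Calls gained in this way were Kcnj13 without WT replicate 2 (adjusted p = 0.0449), Kcng2 (0.0216) and Kcnip2 (0.0135) without 5xFAD replicate 2, Kcnab1 (0.0268), Kcnab3 (0.0269) and Kcnip4 (0.0496) without replicate 3, and Kcnab1 (0.0497) and Kcnc2 (0.0461) without replicate 4. Kcnab2 was gained without 5xFAD replicate 2 (0.043), 3 (0.0138) or 4 (0.0325). With the 3 choroid-rich libraries left out, a choice made after seeing the data, 3 were called, with 566 of all genes, namely Kcnk6 and Kcnj2 as higher and Kcng2 as lower.

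Kcnk6 (TWIK-2, ENSMUSG00000046410, chr7:29221926-29232515), a two-pore-domain channel that lets potassium leave macrophages and microglia, had FPKMs of 0.56, 0.44, 0.38 and 0.33 in WT, 1.24, 1.47, 1.26 and 1.73 in untreated 5xFAD and 0.83, 0.73, 0.77 and 1.05 in light-treated HPC. All 4 untreated 5xFAD libraries lay above the 4 WT libraries, and the 4 light-treated ones lay between them. The group means were 0.428 ± 0.0991, 1.43 ± 0.228 and 0.845 ± 0.143 (SD, n = 4 each). Kcnk6 rose in 5xFAD (log2 fold change 1.75, SE 0.23, adjusted p = 0.000259, edgeR), and the call held under each of the 16 alternatives that tested it, with an adjusted p of up to 0.0101. It passed the filter through the untreated 5xFAD libraries and 1 light-treated one, with no WT library at an FPKM of 1, and without a filter the log2 fold change was 1.72 (adjusted p = 0.000273). Between light-treated and untreated 5xFAD the difference did not pass the threshold (log2 fold change -0.75, SE 0.22, adjusted p = 0.117, edgeR), although the 4 light-treated values were lower than the 4 untreated ones.

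Kcnj2 (Kir2.1, ENSMUSG00000041695, chr11:111066164-111076821), a strong inward rectifier that holds the resting potential of neurons, glia and vascular cells, was at 0.55, 0.97, 0.69 and 0.43 in WT, 2.38, 1.53, 1.29 and 1.32 in untreated 5xFAD and 2.97, 3.11, 2.01 and 3.22 in light-treated HPC. Every 5xFAD value lay above every WT value, and 3 of the 4 light-treated values were above the highest untreated one. The means were 0.66 ± 0.232, 1.63 ± 0.511 and 2.83 ± 0.555 (SD, n = 4 each). Kcnj2 rose in 5xFAD (log2 fold change 1.34, SE 0.27, adjusted p = 0.00735, edgeR), again under each of 16 alternatives, with an adjusted p of up to 0.0321. Kcnj2 too passed the filter through the 2 5xFAD groups, with no WT library at an FPKM of 1, and without a filter the log2 fold change was 1.31 (adjusted p = 0.00571). With light it was not called (log2 fold change 0.78, SE 0.26, adjusted p = 0.15, edgeR), with 4 of 4 values above the untreated mean.

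Kcnk6 and Kcnj2 belong to a list of 5 channels known from microglia, with Kcna3, Kcnn4 and Kcnk13. In HPC 4 of the 5 were tested. Comparing 5xFAD with WT, 2 were called higher, against 6.48% of genes, and 0 lower, against 2.06%, with a median log2 fold change of 0.82. Between light-treated and untreated 5xFAD 0 were called either way, against 0.455%, with a median of -0.24. The list was chosen with earlier results known. Kcnk13, a microglial two-pore-domain channel, was at 3.61, 2.74, 3.9 and 2.08 in WT, 3.66, 3.33, 3.77 and 3.78 in untreated 5xFAD and 1.33, 2.77, 2.9 and 4.46 in light-treated HPC. Kcna3, a Kv1 pore of immune cells, was at 0.95, 1.27, 0.77 and 0.89 in WT, 1.25, 0.86, 1.54 and 1.15 in untreated 5xFAD and 1.51, 1.49, 0.66 and 0.73 in light-treated mice. For both genes the 3 groups overlapped. Markers of microglia also differed in this tissue. The summed FPKM of 6 markers of plaque-associated microglia (Cst7, Trem2, Itgax, Clec7a, Cd68 and Tyrobp, with Tyrobp the most abundant) was 106, 114, 127 and 111 in WT, 1472, 935, 806 and 942 in untreated 5xFAD and 592, 565, 1245 and 1111 in the light-treated group, and 1 marker was at 0 in WT replicate 2. All 6 were called higher in 5xFAD than in WT, and so were all 6 markers of microglia in general, whose sum was 227 to 262 in WT, 507 to 717 in untreated and 424 to 632 in light-treated 5xFAD. Between light-treated and untreated 5xFAD 0 of either 6 were called by edgeR. The part of these cells in the Kcnk6 and Kcnj2 differences was not tested, and in bulk tissue fewer or more cells of a type and less or more RNA per cell cannot be told apart.

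Kcnn2 (SK2, ENSMUSG00000054477, chr18:45268860-45686024), a calcium-gated channel that dampens firing after a burst, was at 29.5, 28.6, 21.7 and 24.7 in WT, 22.8, 16.5, 13.1 and 24.1 in untreated 5xFAD and 15.1, 18.7, 16.3 and 16.1 in light-treated HPC. The untreated 5xFAD and WT values overlapped, since 5xFAD replicates 1 and 4 were above the lowest WT value, while 4 of 4 were below the WT mean of 26.1. Kcnn2 fell in 5xFAD (log2 fold change -0.42, SE 0.11, adjusted p = 0.0341, edgeR), but the call was made under 7 of 17 alternatives, with adjusted p from 0.00466 to 0.133. It was lost without WT replicate 1 (adjusted p = 0.104), 2 (0.0886) or 4 (0.0675), and without 5xFAD replicate 2 (0.0801) or 3 (0.056). The light-treated values were below the untreated mean of 19.1 in 4 of 4 libraries.

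Kcnd2 (Kv4.2, ENSMUSG00000060882, chr6:21215503-21729805), the pore of the dendritic A-type current, was at 15.5, 16.3, 16.1 and 17.5 in WT, 10.3, 14.3, 10.95 and 10.3 in untreated 5xFAD and 24.24, 21.7, 14.6 and 17.4 in light-treated HPC. The untreated values lay below all WT and all light-treated values, and the light-treated range took in the WT range. Kcnd2 fell in 5xFAD (log2 fold change -0.50, SE 0.14, adjusted p = 0.0475, edgeR), a call made under 5 of 17 alternatives with adjusted p from 0.0142 to 0.134. It was lost without WT replicate 1 (adjusted p = 0.0786), 2 (0.0869), 3 (0.104) or 4 (0.134), and without 5xFAD replicate 1 (0.112), 3 (0.078) or 4 (0.0775).

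Kcnab2 (ENSMUSG00000028931, chr4:152390742-152477871) was at 272, 264, 253 and 277 in WT, 183, 212, 112 and 223 in untreated 5xFAD and 227, 255, 246 and 228 in light-treated HPC. All 4 untreated values were below all WT values, and replicate 3 was the lowest of the 12 libraries. The difference missed the threshold (log2 fold change -0.52, SE 0.16, adjusted p = 0.0586, edgeR). It passed the threshold in 7 of 17 alternatives, with adjusted p from 0.0123 to 0.139 over the 17. Among the 7 were the fits without 5xFAD replicate 2 (adjusted p = 0.043), 3 (0.0138) or 4 (0.0325). Another 5 members had every untreated 5xFAD value below every WT value without a call. They were Kcna1 (log2 fold change -0.25, adjusted p = 0.0992, edgeR), Kcna4 (-0.50, 0.145), Kcnab1 (-0.73, 0.0809), Kcnc2, a pore of fast-spiking interneurons (-0.48, 0.0694), and Kcnj3 (-0.36, 0.126). Kcnab1 was at 52.1, 51.4, 53.5 and 46.9 in WT, 31.2, 37.9, 13.8 and 38.8 in untreated 5xFAD and 50.5, 46.9, 31.9 and 41.7 in light-treated mice, with 5xFAD replicate 3 again the lowest. Kcnc2 was at 20.4, 21, 21.3 and 19.2 in WT, 10.7, 15.2, 15.8 and 17.7 in untreated 5xFAD and 11.6, 19.6, 14.7 and 14 in light-treated mice. The light-treated values overlapped both other groups for each of the pair.

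By family, the median log2 fold change of 5xFAD over WT in HPC was -0.27 over 10 auxiliary subunits and -0.35 over 8 silent subunits, of which 7 were below 0. It was 0.24 over 9 two-pore-domain channels and 0.19 over 5 of the EAG, ERG and ELK type, all above 0, with untreated replicate 3 the highest of the 12 libraries for Kcnh1, Kcnh3, Kcnh5 and Kcnh7. Without that replicate these 2 medians were -0.05 and -0.16, whereas those of the auxiliary and silent subunits were below 0 in every alternative run. It was nearer 0 in the other families (-0.10 over 14 Kv1 to Kv4 pores, -0.12 over 3 Kv7 subunits, -0.10 over 7 of the calcium- or sodium-activated group and 0.10 over 12 inward rectifiers), and the last 2 changed sign between alternatives. Scaling by median of ratios instead of TMM put the median of all genes at 0.01 as well. The summed FPKM of the members was 859 ± 32.7 in untreated and 963 ± 92.5 in light-treated mice (SD, n = 4 each), beside the 973 ± 50.0 of WT. Kcnab2, the most abundant member in each group, weighs most in this sum, and its untreated values were all below the WT ones. The sum therefore does not describe the typical member. The 8 neuronal markers, with Camk2a the most abundant and none at 0, summed to 3996, 4014, 4289.6 and 4403 in WT, 2979, 3779, 3903 and 3535 in untreated and 3769, 3980.3, 4260.0 and 3930.4 in the light-treated group. The 4 untreated sums were below the 4 WT sums, and 1 of the 8 markers was called lower. The 6 astrocyte markers, with Gfap the most abundant, summed to 891, 806, 779 and 753 in WT, 3224, 1445, 906 and 2104 in untreated and 1246, 1298, 1626 and 1659 in the light-treated group, and 3 of 6 were called higher in 5xFAD than in WT. Gfap made up 2604 of the 3224 in untreated replicate 1, and without Gfap the sums overlapped, at 533 to 628 in WT and 568 to 663 in untreated mice. The other markers did not move alike. Aqp4 was at 63.0 to 73.4 in WT and 74.7 to 193 in untreated mice, without overlap. Aldh1l1 was at 21.2 to 29.7 and 29.9 to 39.1, also without overlap. Slc1a2 was at 161 to 184 in WT and 128 to 167 in untreated mice (log2 fold change 0.04 by counts, edgeR). For Slc1a2, Slc1a3 and Gja1 the WT and untreated values overlapped. The part of either cell type in the members' values was not tested. Kcnj10, the inward rectifier of astrocytes, was at 13.8, 8.41, 9.03 and 11.4 in WT, 18.9, 9.92, 16.5 and 10.4 in untreated 5xFAD and 11.2, 15, 8.12 and 11.3 in light-treated HPC, with overlapping groups.

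**Figure D2:**
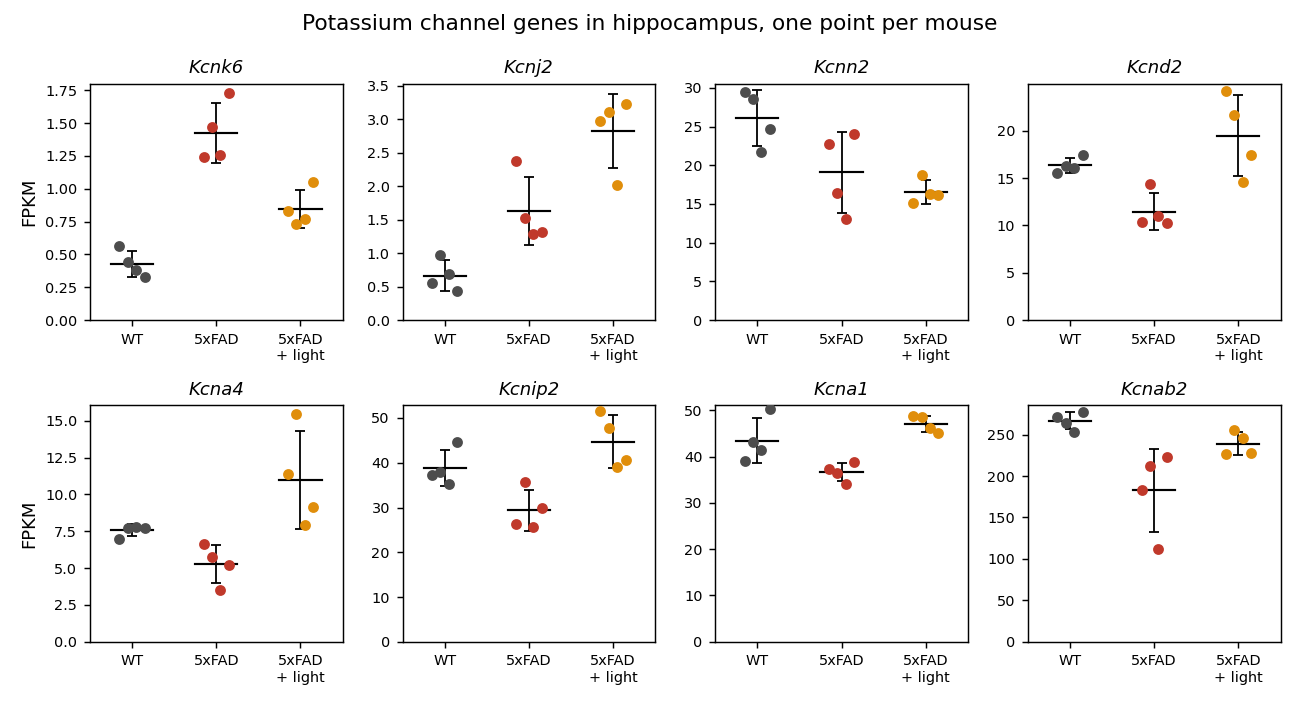
FPKM of Kcnk6, Kcnj2, Kcnn2, Kcnd2, Kcna4, Kcnip2, Kcna1 and Kcnab2 in the 12 HPC libraries, 4 per group. Points are mice, lines are means and bars are SDs; for Kcnd2 the 4 untreated 5xFAD values, 10.3 to 14.3, lie below all 8 others.

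Between light-treated and untreated 5xFAD HPC, 2 of 68 members were called by edgeR, against 0.455% of the 12981 genes. Both were higher with light, against 0.27% of genes, and 0 were lower, against 0.185%. At an unadjusted p below 0.05 there were 21, against 18.3%, with 16 higher, against 8.54%, and 5 lower, against 9.81%. The groups did not overlap for 8 members higher with light, against 3.66% of genes, and for 2 lower, against 3.98%. DESeq2 called 9, against 4.94% of genes, with Kcna1, Kcna4, Kcnd2, Kcng2, Kcnip2 and Kcnj6 among the higher ones and Kcnj13 and Kcnk6 as lower. With limma 0 were called, against 60 of the 12981 genes with a pseudocount of 1 and 51 with 0.1. The count depended on single libraries. It was 0 without untreated replicate 3 (with 3 of all 12981 genes called) or 4 (12) and without light-treated replicate 1 (2), 2 (0) or 4 (0), and 1 without untreated replicate 1 (25). It was 2 without light-treated replicate 3 (81) and was 5 without untreated replicate 2 (269), which added Kcnip2 and Kcng2 among others (adjusted p = 0.0235 for Kcng2). The count over all genes thus moved with the same libraries, from 59 with all of them in. With the 3 choroid-rich libraries left out, a choice made after seeing the data, it was 5, with 166 of all genes called, namely Kcna4, Kcnd2, Kcng2 and Kcnip2 as higher and Kcnab3 as lower. The median log2 fold change was 0.10 over the members and -0.02 over all genes, with 60.3% of members and 47.5% of genes above 0. It was 0.25 over the members without untreated replicate 3 and -0.01 with the choroid-rich libraries left out.

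The 2 called genes are both pores of A-type current. Kcnd2, whose values are given above, rose with light in 4 of 4 libraries (log2 fold change 0.76, SE 0.14, adjusted p = 0.0483, edgeR), with means of 11.5 ± 1.93 in untreated and 19.5 ± 4.3 in the light-treated group and 16.3 ± 0.828 in WT (SD, n = 4 each). The call was made under 6 of 17 alternatives, with adjusted p from 0.000314 to 0.177, and among the 8 left-out libraries it held without untreated replicate 2 (0.0131) and light-treated replicate 3 (0.0373) and was lost without untreated replicate 1 (0.076), 3 (0.0638) or 4 (0.0773) and light-treated replicate 1 (0.177), 2 (0.161) or 4 (0.0707). Kcna4 (Kv1.4, ENSMUSG00000042604, chr2:107290639-107298502), an axonal pore, was at 6.95, 7.71, 7.82 and 7.75 in WT, 6.62, 5.78, 3.52 and 5.22 in untreated 5xFAD and 11.4, 15.4, 7.94 and 9.11 in light-treated HPC. Light-treated values were all above the untreated and WT values, and replicates 1 and 2 were the highest. Kcna4 rose with light (log2 fold change 1.04, SE 0.20, adjusted p = 0.0483, edgeR), under 8 of 17 alternatives with adjusted p from 0.000194 to 0.177. Without untreated replicate 1 (0.0455) or 2 (0.0347) or light-treated replicate 3 (0.043) the call held. It was lost without untreated replicate 3 (0.0574) or 4 (0.0773) and light-treated replicate 1 (0.177), 2 (0.161) or 4 (0.0701).

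Other members of small p did not pass. Kcnip2 (KChIP2, ENSMUSG00000025221, chr19:45791839-45816061), the calcium-binding partner of Kv4 pores, was at 37.4, 37.9, 35.3 and 44.7 in WT, 26.4, 35.8, 25.6 and 29.8 in untreated 5xFAD and 51.5, 47.8, 39 and 40.5 in light-treated HPC. The 4 light-treated values were above the 4 untreated ones (log2 fold change 0.61, SE 0.13, adjusted p = 0.0547, edgeR); WT replicate 3 was below the highest untreated value. Kcnip2 was called in 4 of 17 alternatives, with adjusted p from 0.00144 to 0.198 over the 17. The fit without untreated replicate 2 was among them (adjusted p = 0.0138). The ratio of Kcnip2 to Kcnd2 in FPKM was 2.37 ± 0.155 in WT, 2.58 ± 0.238 in untreated and 2.33 ± 0.240 in light-treated 5xFAD (SD, n = 4 each), so the groups differed by about as much as replicates did. The ratio of Kcnab2 to Kcna1 was 6.18 ± 0.591 in WT, 4.95 ± 1.19 in untreated and 5.08 ± 0.305 in light-treated 5xFAD (SD, n = 4 each). Its WT and light-treated values did not overlap (5.52 to 6.95 and 4.66 to 5.35), and untreated ones (3.28 to 5.83) overlapped both. No test was run on either ratio. Kcna1 (Kv1.1, ENSMUSG00000047976, chr6:126640397-126646384) was at 39.1, 43.1, 41.3 and 50.2 in WT, 37.3, 36.4, 34.1 and 38.7 in untreated 5xFAD and 48.7, 48.5, 46.1 and 45.2 in light-treated HPC. Untreated values were the lowest of the 3 groups with no overlap, and light-treated ones lay above 3 of the 4 WT values (log2 fold change 0.36, SE 0.09, adjusted p = 0.0822, edgeR).

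Light-treated values were also above all untreated ones for Kcnj6, a channel opened by G proteins (log2 fold change 0.71, adjusted p = 0.0978, edgeR), for the two-pore-domain channel Kcnk10 (0.52, 0.165) and for Kcnab2 (0.39, 0.217). Kcnj6 was at 5.89, 7.1, 5.77 and 6.78 in WT, 6.97, 5.48, 7.17 and 4.58 in untreated 5xFAD and 12, 10.8, 7.79 and 7.93 in light-treated HPC. Its untreated and WT values overlapped. The silent subunit Kcng2 was at 4.16, 3.55, 2.92 and 4.67 in WT, 2.5, 4.53, 1.63 and 1.83 in untreated 5xFAD and 5.91, 4.99, 4.05 and 3.98 in light-treated mice and its groups overlapped (0.94, 0.0839). By family, 11 of 14 Kv1 to Kv4 pores and 6 of 8 silent subunits had a log2 fold change above 0, with medians of 0.14 and 0.36 that were above 0 in every alternative run, while the medians over 10 auxiliary subunits, 12 inward rectifiers and 9 two-pore-domain channels were 0.02, 0.06 and -0.03 and changed sign between alternatives. Kcnt1, a sodium-gated channel, had a log2 fold change of -1.19 (adjusted p = 0.162, edgeR), and its untreated values were 1.75, 2.8, 9.17 and 2.88 against 1.23, 2.01, 2.08 and 2.26 with light. Untreated replicate 3 was the highest of these 8.

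Promoters are shown for the 2 called genes and for Kcnip2, which was not called but encodes a partner of the Kcnd2 pore; a joint change was not tested. RefSeq (GRCm38.p6) gave at least 1 promoter for 55 of the 78 members. Of the 5 members of smallest p, 3 had exactly 1 promoter there (Kcnd2, Kcna4 and Kcnip2). The 250 bases before the start are printed 5′ to 3′ on the gene's strand, for Kcnd2 from chr6:21215096-21215345 on the plus strand, for Kcna4 from chr2:107290339-107290588 on the plus strand and for Kcnip2 from chr19:45816064-45816313 on the minus strand. Capitals mark GGGCGG, the GC box, read on both strands. It occurred 1 time before Kcnd2, 1 time before Kcna4 and 2 times before Kcnip2, with GC contents of 68.8%, 65.2% and 66.8%. Of all 32851 promoters of the same length 32.7% held it. Counted by gene, 9555 of 27025 genes held it in at least 1 promoter (35.4%), and 34 of the 55 members did. The E-box CACGTG (6.02% of promoters and 6.86% of genes, 4 members), the cAMP response element TGACGTCA (1.55% and 1.77%, 0 members) and the TATA box TATAAA (12.4% and 14.3%, 3 members) occurred in none of the 3 windows. A match is a description of these letters and was not tested as a site.
Kcnd2: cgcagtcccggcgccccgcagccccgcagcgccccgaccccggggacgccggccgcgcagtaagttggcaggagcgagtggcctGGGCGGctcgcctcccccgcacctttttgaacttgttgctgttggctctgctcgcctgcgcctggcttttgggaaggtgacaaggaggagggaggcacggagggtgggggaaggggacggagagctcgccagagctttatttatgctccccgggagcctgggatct
Kcna4: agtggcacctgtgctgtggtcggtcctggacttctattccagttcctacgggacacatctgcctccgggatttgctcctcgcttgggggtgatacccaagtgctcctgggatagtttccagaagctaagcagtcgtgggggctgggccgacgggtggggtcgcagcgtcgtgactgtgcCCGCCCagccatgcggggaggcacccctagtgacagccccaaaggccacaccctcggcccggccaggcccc
Kcnip2: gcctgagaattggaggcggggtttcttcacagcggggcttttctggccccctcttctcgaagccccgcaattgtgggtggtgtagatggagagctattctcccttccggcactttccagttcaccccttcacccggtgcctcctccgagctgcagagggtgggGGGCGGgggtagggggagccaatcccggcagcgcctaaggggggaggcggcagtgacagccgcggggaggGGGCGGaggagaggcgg

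Kcnj13 and Kcne2, both known from choroid plexus epithelium, varied widely between HPC libraries. Kcnj13 (Kir7.1, ENSMUSG00000079436, chr1:87386363-87394729) was at 2.37, 35.1, 4.83 and 0.6 in WT, 35.5, 29.1, 9.27 and 3.3 in untreated 5xFAD and 1.08, 1.94, 1.62 and 2.32 in light-treated mice. The highest were untreated replicates 1 and 2 and WT replicate 2, the same libraries in which the choroid plexus markers were highest. Kcne2 was at 0.39, 7.66, 1.18 and 0.09 in WT, 5.38, 6.93, 1.15 and 0.3 in untreated 5xFAD and 0.25, 0.1, 0.14 and 0.68 in light-treated mice, with the same 3 libraries on top. With light the log2 fold changes were -3.53 for Kcnj13 (SE 1.04, adjusted p = 0.122, edgeR) and -3.61 for Kcne2 (SE 1.24, adjusted p = 0.159). Outside the 3 choroid-rich libraries Kcnj13 was at 0.6 to 9.27 and Kcne2 at 0.09 to 1.18 in HPC. The part of choroid plexus RNA in these differences was not tested.

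In the meninges 59 of the 78 members were tested, again with both comparisons sharing the 3 untreated 5xFAD libraries. Between 5xFAD and WT, edgeR called 0 of 59, against 0.0% of the 14318 genes. At an unadjusted p below 0.05 there were 4, against 4.01% of genes. DESeq2 called 0 members, against 0.0% of genes, and limma 0, with 0 of all genes. The median log2 fold change was -0.16 over the members and 0.00 over all genes. Of the members 18 were above 0 and 41 below, so that 30.5% were above 0, against 49.6% of genes. Over single libraries left out the members' median ran from -0.36 to -0.03, with -0.03 without WT replicate 1, -0.04 without WT replicate 3 and -0.36 without 5xFAD replicate 4. The 5 of smallest p, each with an adjusted p of 0.987, were Kcnj15 (log2 fold change 1.15), Kcnf1 (-2.38), Kcnab2 (-0.83), Kcnab3 (-1.91) and Kcnh6 (-0.72). Kcnj15, an inward rectifier, was at 3.15, 2.49, 4.34 and 3.46 in WT and 3.97, 3.25 and 16.2 in untreated 5xFAD, so that replicate 4 alone stood above the WT range. That library was also the highest of the 10 for Kcnk5 at 48.7 and for Kcne4 at 87.5, and the lowest for Kcnh6 at 2.83 and Kcnj14 at 7.12. Its 5 pinealocyte markers, led by Tph1, summed to 81.5, against 277 to 734 in the other 9, and its 7 markers of blood endothelium, led by Ly6c1, to 739, against 266 to 462. The part of these cell types was not tested. Kcnf1, a silent subunit, was at 5.58, 0.52, 1.58 and 0.39 in WT and 0.23, 0.53 and 0.36 in untreated 5xFAD. Kcnab3, a Kv1 partner, was at 9.69, 0.88, 1.64 and 0.84 in WT and 0.58, 0.7 and 1.27 in untreated 5xFAD. For both, WT replicate 1 was far above the rest, and the sum of the 8 neuronal markers, led by Snap25 with none at 0, was highest there too, at 531, 176, 285 and 197 in WT, 261, 240.1 and 106 in untreated and 115, 389 and 227 in the light-treated group. Its part in the difference was not tested.

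Between light-treated and untreated 5xFAD meninges, edgeR called 0 of 59 members, against 0.014% of genes (2 of 14318). At an unadjusted p below 0.05 there were 14, against 12.7%, with 3 higher, against 5.01%, and 11 lower, against 7.71%. The 3 light-treated and 3 untreated values did not overlap for 3 members higher with light, against 10.1% of genes, and for 10 lower, against 10.7%. DESeq2 called 1 member, against 0.552% of genes, and limma 0, with 1 of all genes. The 10 included Kcna1, Kcnc1, Kcnc2, Kcnh1, Kcnj10, Kcnj12 and Kcnmb4, and the 3 were Kcne2, Kcnj13 and Kcnk1. The median log2 fold change was -0.24 over the members and 0.04 over all genes, with -0.39 without untreated replicate 2 and -0.45 without light-treated replicate 2, and over the 15 members tested under a mean FPKM of at least 5 it was 0.26. Of 12 Kv1 to Kv4 pores 10 were below 0, with a median of -0.90, and without light-treated replicate 1 these were 10 and -0.78. That library was the lowest of the 10 for 16 members, against 7.96% of genes, and the highest for 0, against 7.07%. Its 5 erythroid markers, led by Hbb-bs, summed to 48541, against 5037 to 18230 in the other 9. Its 5 neutrophil markers, led by S100a8, summed to 7445, against 524 to 3046, so it held more RNA of blood cells than any other. The part of these cells in the members' values was not tested. Without the library 0 members and 2 genes were called, and the members' median was -0.29.

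Kcnc1 (Kv3.1, ENSMUSG00000058975, chr7:46396497-46438704), a pore for fast firing, was at 5.33, 0.45, 4.36 and 2.8 in WT, 4.41, 3.17 and 1.85 in untreated 5xFAD and 0.68, 1 and 0.67 in light-treated meninges. The light-treated values were below the untreated ones in 3 of 3 libraries, but WT replicate 2 was lower still (log2 fold change -2.03, SE 0.58, adjusted p = 0.286, edgeR). Kcna1 was at 11.02, 2.68, 6.55 and 7.02 in WT, 4.66, 6.12 and 8.69 in untreated 5xFAD and 1.64, 2.3 and 3.83 in light-treated mice, with 3 of 3 light-treated values below the untreated ones and WT replicate 2 among them (log2 fold change -1.35, SE 0.44, adjusted p = 0.297, edgeR). The neuronal marker sums given above overlapped between these groups, but Snap25 made up most of them (327 of 389 in light-treated replicate 2). Of the 8 markers 1 did not overlap, Camk2a, at 17.0, 18.3 and 12.4 in untreated and 3.06, 7.25 and 6.2 in light-treated mice. The other 7 overlapped, and Snap25 and Gad1 were highest in light-treated replicate 2. The part of neuronal RNA in the lower values was not tested. Kcnj15 had a log2 fold change of -1.43 (adjusted p = 0.286, edgeR), with untreated replicate 4 high as above. The silent subunit Kcns1 was at 4.92, 5.73, 2.25 and 5.19 in WT, 3.01, 3.29 and 4.74 in untreated 5xFAD and 10.8, 11.4 and 4.48 in light-treated mice, high in light-treated replicates 1 and 2 but not 4 (log2 fold change 1.26, SE 0.41, adjusted p = 0.297, edgeR).

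Kcnj13 was at 140.4, 248, 167 and 118 in WT, 148, 152 and 149 in untreated 5xFAD and 193, 218 and 487 in light-treated meninges. Kcne2 was at 32.5, 64.2, 54.5 and 35.7 in WT, 42.5, 44.9 and 40.8 in untreated 5xFAD and 48.9, 66.7 and 113 in light-treated mice. For both, the 3 light-treated values were above the 3 untreated ones, which were close together, and light-treated replicate 4 was the highest of all 10, also in the choroid plexus marker sum. The log2 fold changes with light were 1.02 (adjusted p = 0.316, edgeR) and 0.85 (0.341). The summed FPKM of all members was 461 ± 64.7 in untreated and 635 ± 196 in light-treated 5xFAD (SD, n = 3 each).

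**Figure D3:**
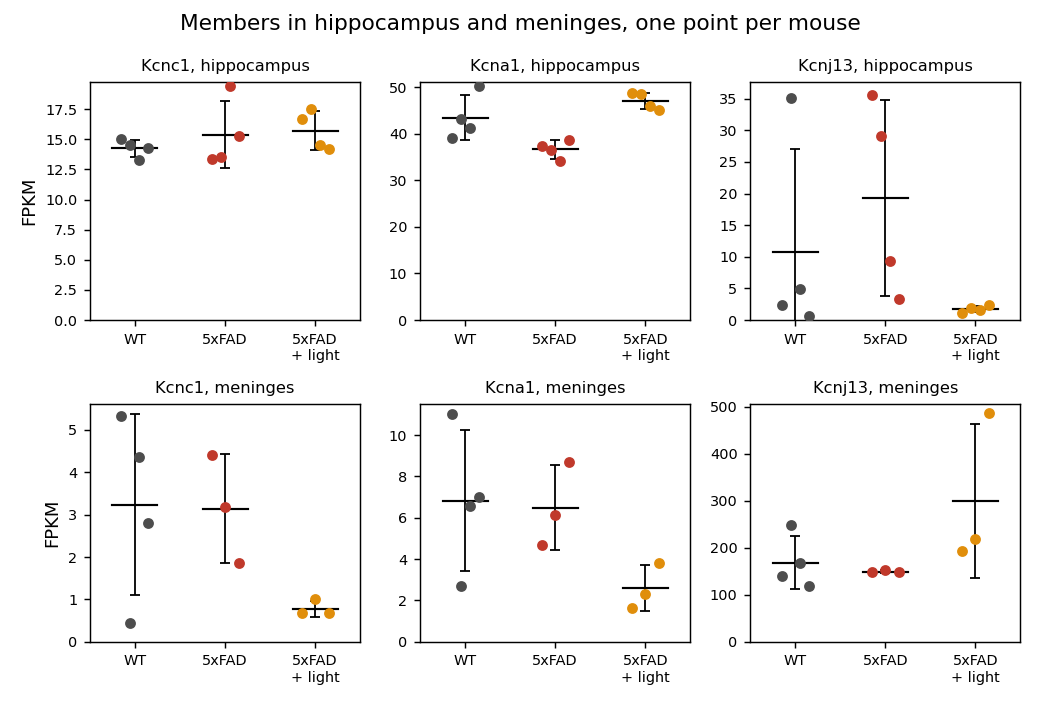
FPKM of Kcnc1, Kcna1 and Kcnj13 in the HPC (4 libraries per group) and the meninges (4 WT, 3 untreated and 3 light-treated 5xFAD). Points are mice, lines are means and bars are SDs; in the meninges the 3 light-treated values lie below the 3 untreated ones for Kcnc1 and Kcna1 and above them for Kcnj13.

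Whether an effect differed between the tissues was tested as the difference of the 2 log2 fold changes, HPC minus meninges, over 15132 genes with all 78 members. For 5xFAD against WT, 1 of 78 members was called by edgeR, against 1.74% of genes, and 4 had an unadjusted p below 0.05, against 12.8%. It was Kcnk6, whose difference was 1.93 (SE 0.36, adjusted p = 0.00538), higher in 4 of 4 5xFAD HPC libraries than in any WT one. In the meninges Kcnk6 was at 1.23, 1.57, 2.04 and 1.15 in WT, 1.48, 1.29 and 1.18 in untreated 5xFAD and 1.27, 1.09 and 0.87 in light-treated mice, and its log2 fold change of 5xFAD over WT was -0.17, with overlapping groups. The call held in every alternative run, with adjusted p from 4.2e-05 to 0.0402. Kcnn4 was called by DESeq2 (2.52, adjusted p = 0.0499) and without WT HPC replicate 2 (adjusted p = 0.0168, with no size given because WT HPC then held counts of 3, 0 and 2), and Kcnk5 without untreated 5xFAD meninges replicate 4 (2.72, adjusted p = 0.0404), so that leaving out 1 library gave 1 or 2 members, with 125 to 354 genes beside 263 in all.

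For light-treated against untreated 5xFAD, 1 of 78 members was called, against 1.05% of genes, and 20 had an unadjusted p below 0.05, against 19.8%. Kcna1 had a difference of 1.76 (adjusted p = 0.0518) and Kcnc1 one of 2.15 (adjusted p = 0.0638), neither past the threshold by edgeR. Kcna1 was called with median-of-ratios scaling (adjusted p = 0.0498) and by DESeq2 (0.00579), and DESeq2 also called Kcnc1 (0.00978) and Kcns2 (0.0211). In the opposite direction, Kcnj13 had a difference of -4.51 (adjusted p = 0.0694) and Kcne2 of -4.44 (adjusted p = 0.0959), not past the threshold either. Without untreated 5xFAD meninges replicate 4 the count was 3, Kcnc1 (2.39, adjusted p = 0.0448) and Kcnk5 (-2.99, adjusted p = 0.0419) among them. Leaving out 1 library at a time gave 1 to 3 members, with 10 to 257 genes called beside 159 in all.

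In mLECs 53 of the 78 members had a count of 0 in all 10 libraries. Another 11 had counts but never an FPKM of 1, 14 reached it in at least 1 library and 6 of these in 1 library alone. For example, Kcnn4 was at 31.3 in untreated 5xFAD replicate 2, and the vascular Kv1 pore Kcna5 at 20.8 in WT replicate 4. The 6 members that reached it in 3 or more libraries were tested. Kcnk4 (TRAAK, ENSMUSG00000024957, chr19:6923966-6934515), a two-pore-domain channel opened by stretch, was the one member with counts in all 10 libraries. Its FPKM was 2.09, 7.17, 4.9 and 3.59 in WT, 8.38, 16.3 and 1.97 in untreated 5xFAD and 6.25, 0.84 and 17 in light-treated mLECs, with no group apart, and its exons overlap those of Catsperz on the same strand. Kcnt2, a sodium-gated channel, was at 0, 1.62, 0.17 and 2.65 in WT, 3.32, 0.99 and 3.37 in untreated 5xFAD and 3.7, 3.4 and 26 in light-treated mice. The highest was light-treated replicate 3. Kcne4 was at 0.03, 0.03, 0 and 285 in WT, 8.48, 92.1 and 0.03 in untreated 5xFAD and 0.03, 0.04 and 0 in light-treated mice, so nearly all of its FPKM came from WT replicate 4 and untreated replicate 2. The mural cell marker Rgs5 was also highest in these libraries, at 448.55 and 47.65, against 0 to 10.04 in the others. Acta2, another mural cell marker, was at 0 in WT replicate 4 and at 376.68 in untreated replicate 2. Both markers were picked from a longer list. Its other genes, Pdgfrb, Myh11, Tagln, Des and Notch3, are not given here. The part of mural cells in the Kcne4 values was not tested. Kcnj8 was at 1.52, 0, 0 and 38.5 in WT, 7.5, 3.32 and 25.3 in untreated 5xFAD and 0.08, 0.04 and 37.8 in light-treated mice, high in a WT, an untreated and a light-treated library. Kcnq1 was at 0, 0, 9 and 0 in WT, 0, 0 and 4.61 in untreated 5xFAD and 0, 0.03 and 22.2 in light-treated mice, above 1 in 3 libraries. A member could thus be at 0 in 1 library and above 20 in another of the same group.

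Between 5xFAD and WT mLECs, edgeR called 0 of 6 members, against 0.0% of 8188 genes, 0 had an unadjusted p below 0.05, against 3.81%, DESeq2 called 0, against 2.26%, and limma 0. Between light-treated and untreated 5xFAD it called 0 of 6, against 0.0%, 1 had an unadjusted p below 0.05 (Kcne4), against 4.01%, DESeq2 called 0, against 4.36%, and limma 0. These comparisons share the 3 untreated libraries. With WT replicates 2 and 4 left out, a choice made after seeing the data, 0 members were called in either. In edgeR the common spread between libraries of the same group, as a coefficient of variation, came to 1.89 in mLECs, 0.35 in the meninges and 0.198 in HPC.

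Genes that work with potassium channels but lie outside the symbol pattern were described from lists. Of 14 partner subunits, 9 were tested in HPC. Between 5xFAD and WT 0 were called higher, against 6.48% of all genes, and 2 lower, against 2.06%, by edgeR, with a median log2 fold change of -0.50. They were Cntnap2, which clusters Kv1 channels along the axon, with mean FPKMs of 18.6 in WT and 13.5 in 5xFAD (-0.60, adjusted p = 0.0124, 4 of 4 5xFAD values below the WT mean), and Lgi1, a secreted partner of Kv1 channels, with means of 50.3 and 34.1 (-0.55, adjusted p = 0.041, 4 of 4 below all WT values). Cntnap2 was called in 14 of 17 alternatives (adjusted p from 0.000441 to 0.0836), which include every run with 1 library left out. Lgi1 was called in 9 of 17 (0.00761 to 0.0989) and was not called without WT replicate 1 (0.0965), WT replicate 2 (0.0764), WT replicate 3 (0.0847), WT replicate 4 (0.0972) or untreated replicate 1 (0.0917). With light 1 was called higher, against 0.27%, and 0 lower, against 0.185%, with a median of 0.36. It was Abcc8, the sulfonylurea receptor of ATP-sensitive channels, with means of 4.72 in untreated and 9.29 in light-treated 5xFAD (0.99, adjusted p = 0.0483), and 4 of 4 light-treated values lay above all untreated ones. The Abcc8 call was kept in 6 of 17 alternatives (0.000324 to 0.177) and was lost without untreated replicate 1 (0.0591), untreated replicate 3 (0.0634), untreated replicate 4 (0.0773), light-treated replicate 1 (0.177), light-treated replicate 2 (0.161), light-treated replicate 3 (0.0521) or light-treated replicate 4 (0.0701). It was also lost (0.0594) when genes were tested from a mean FPKM of 5 up. In the meninges 11 were tested and 0 called in either comparison, with medians of -0.02 and -0.09, and in mLECs none was tested. Between WT meninges and WT HPC 1 of 10 was higher, against 37.8% of genes, and 7 were lower, against 33.2%.

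Of 11 sodium-potassium pump subunits and chloride cotransporters that carry potassium, 10 were tested in HPC. For the lists of this paragraph, the shares of all genes called were 6.48% higher and 2.06% lower in 5xFAD than in WT HPC, 0.455% with light in HPC, 0.0% and 0.014% in the 2 comparisons of the meninges, 0.0% in both of mLECs, and 37.8% higher and 33.2% lower in WT meninges than in WT HPC. Between 5xFAD and WT 2 were called higher, Atp1b2 (means 146 in WT and 189.5 in 5xFAD, log2 fold change 0.39, adjusted p = 0.0418, edgeR) and Atp1b3 (47.4 and 63.8, 0.44, adjusted p = 0.0281), and 1 lower, the neuronal cotransporter Slc12a5 (48.4 and 36.6, -0.46, adjusted p = 0.0416), with a median of 0.30. For each of these 3 the WT and 5xFAD values did not overlap, but each call depended on single libraries. Atp1b2 was called in 5 of 17 alternatives (0.00961 to 0.151), and not without WT replicate 2 (0.086), WT replicate 3 (0.127), WT replicate 4 (0.123), untreated replicate 1 (0.0942), untreated replicate 3 (0.0514) or untreated replicate 4 (0.0589). Atp1b3 was called in 11 of 17 (0.00508 to 0.149), and not without WT replicate 1 (0.0763), WT replicate 2 (0.0694), WT replicate 4 (0.0982) or untreated replicate 1 (0.0773). Slc12a5 was called in 7 of 17 (0.00818 to 0.211), and not without WT replicate 1 (0.111), WT replicate 2 (0.0937), WT replicate 4 (0.118), untreated replicate 1 (0.0973) or untreated replicate 3 (0.071). With light 0 were called, with a median of 0.00. In the meninges 11 were tested with 0 called, and medians of -0.06 and -0.28, and in mLECs 7 with 0 called. Between WT meninges and WT HPC 4 of 11 were higher and 5 lower. The microglial channel list had 4 of 5 tested in the meninges with 0 called in either comparison, medians of 0.06 and -0.05, and none tested in mLECs, and 3 of 4 were higher and 1 lower in WT meninges than in WT HPC. Of 27 members chosen for a well-known role, which include all 5 of that list, 26 were tested in HPC. Between 5xFAD and WT 2 were higher and 2 lower, with a median of 0.19, and with light 1 was higher and 0 lower, with a median of -0.01. In the meninges 22 were tested with 0 called, and medians of -0.16 and -0.02, in mLECs 2 with 0 called, and between WT meninges and WT HPC 7 of 26 were higher and 17 lower.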

How the data were processed

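Expected counts and FPKM per gene were deposited by the authors for 32 libraries, in one table for HPC and meninges (22 libraries) and another for mLECs (10). The study's methods name fastp and RSEM, while the submitters' notes list Trimmomatic, HISAT2, StringTie, DESeq2 and mm10. Members and gene lists (families, microglial channels, partner subunits, pumps and cotransporters, role genes, cell type markers) were chosen with earlier results of these data known. Counts were rounded and fitted over all genes of a tissue with an FPKM of at least 1 in 3 or more libraries, all 3 groups in a single model, by edgeR 4.0.16 quasi-likelihood with TMM in R 4.3.3, with Benjamini-Hochberg adjustment and calls at an adjusted p below 0.05. The difference of effects between HPC and meninges was a contrast over 6 groups. The steps were tested on simulated data. Genes were named if called, if among the 5 of smallest p where fewer than 5 were called, if among the 10 largest tissue ratios in each direction, if among the 5 highest in WT, if of a well-known role, or if 1 library stood apart; others were named after their values were seen. Alternatives were median-of-ratios scaling, no filter, a mean FPKM of at least 5, DESeq2 1.42.0, limma 3.58.1 on log2 FPKM with a pseudocount of 1 or 0.1, the compared groups alone, a replicate block, a 2-fold threshold and leaving out each library. Positions are from GENCODE vM21 on GRCm38. Python 3.11.15 with pandas 2.3.3, numpy 2.4.6 and matplotlib 3.10.9 made the summaries and figures. The results of some genes are not reported here, but these genes stay in every fit and count.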

Additional observations from a re-analysis of the deposited data

Results flagged for a closer look

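Among the named members, 41 groups of 4 libraries were examined for a single library far from the other 3. In 6 there was one, and 5 of these are given here. With normally distributed values about 1 in 20 groups would pass the critical gap. Some mLEC groups were mostly at 0, and the genes were named from the same data. The count of 6 therefore cannot be compared with that share. In untreated 5xFAD HPC, Kcnd2 was at an FPKM of 14.3 in replicate 2 and at 10.26 to 10.95 in the others. In WT HPC, Kcna4 was at 6.95 in replicate 1 and at 7.71 to 7.82 in the others. Kcnab3 was at 9.69 in WT meninges replicate 1 and at 0.84 to 1.64 in the others. In WT mLECs, Kcne4 was at 285 in replicate 4 and at 0 to 0.03 in the others, and Kcnq1 at 9 in replicate 3 and at 0 in the others.

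The effect differed between HPC and meninges by edgeR's test of the difference itself for 2 members, of which 1 is given here. The log2 fold change of 5xFAD over WT was larger in HPC than in the meninges by 1.93 for Kcnk6 (adjusted p = 0.00538).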

How the results depend on the processing

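Of the members called in HPC between 5xFAD and WT, 4 in all, the count was 1 with a mean FPKM of at least 5 (39 members tested, Kcnk6 and Kcnj2 not among them, and 625 of 8598 genes called), 10 by DESeq2 (1721 of 12981 genes) and 2 with a 2-fold threshold (556), and 2 to 6 when 1 library at a time was left out (636 to 1713), beside 1108 genes in all. For light-treated against untreated 5xFAD HPC, 2 in all, it was 0 with a mean FPKM of at least 5 (0 of 8598 genes), with the compared groups alone (1 of 12981) and by limma with a pseudocount of 1 (60) or 0.1 (51), 9 by DESeq2 (641), 1 with the 2-fold threshold (35), 5 with the choroid-rich libraries left out (166), and 0 to 5 over single libraries (0 to 269), beside 59 genes in all. With the replicate number as a block it was 1 there (56 genes), and for 5xFAD against WT it was 3 (840). The libraries were not fitted as paired. After each group's mean was taken off, the median correlation of libraries with the same number in different groups was -0.031 in HPC, -0.047 in the meninges, -0.005 in mLECs and 0.062 between WT HPC and meninges, and for different numbers it was 0.012, -0.02, 0.003 and -0.034.

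In the meninges DESeq2 called 1 for light, and single libraries gave 0 to 0 in both comparisons. In mLECs no filter gave 1 of 25 members tested for light, with 15 of 13443 genes called. It was Kcne4 (adjusted p = 0.00838, edgeR). Single libraries gave 0 to 0 in both mLEC comparisons. Between WT tissues, 64 of 73 became 29 of the 30 members tested with a mean FPKM of at least 5 (6669 of 9290 genes called), and 61 to 65 over single libraries (9243 to 10255 genes), beside 10051 of 14144 genes in all. For 5xFAD against WT, the difference between tissues gave 2 by DESeq2 (537 of 15132 genes) and 1 to 2 over single libraries (125 to 354), beside 1 in all (263). For light it gave 2 by median-of-ratios scaling (160), 4 by DESeq2 (732) and 1 to 3 over single libraries (10 to 257), beside 159 genes in all. The cause of these changes was not tested. The rule for members gave 81 at an FPKM of 0.5 and 52 at 5.

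The members' median log2 fold change ran from -0.15 to 0.14 over the alternatives for 5xFAD against WT in HPC, from -0.01 to 0.25 for light in HPC and from -0.45 to 0.26 for light in the meninges, so its sign depended on the setting in each. Among the named genes, sign changes in mLECs included the following. For 5xFAD against WT, with the block, Kcne4 went from -1.10 to 6.37 and Kcnq1 from -0.62 to 2.88. Kcne4 was at 1.22 and 2.49 by limma with pseudocounts of 1 and 0.1, 10.29 without WT replicate 4 and 10.32 without WT replicates 2 and 4. Kcnq1 was at 0.23 by limma with 0.1 and 9.45 without WT replicate 3. For light, Kcnq1 went from 2.19 to -0.027 with the block and -6.45 without light-treated replicate 3, and Kcnk4 from -0.17 to 0.61 without untreated replicate 2 and 0.37 without light-treated replicate 2. The sign changes of Kcne4 and Kcnq1 with libraries left out, and the -10.08 and 11.61 that follow, set 1 group against another whose libraries each held 0 to 2 counts, so they depend on the prior count of the fit and give no size. Over single libraries left out, the ranges were -4.54 to 10.29 for Kcne4 and -10.08 to 9.45 for Kcnq1 in 5xFAD against WT, and -6.45 to 11.61 for Kcnq1 and -1.34 to 0.61 for Kcnk4 with light.

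An absent call does not show that a member was unchanged. FPKM compares levels between genes within a library, and overlapping genes on either strand share reads.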
